A study of Mus musculus with 2 samples.

Results

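The transcription factors and the corepressor that mark cortical layers were followed across the cells of the E16.5 mouse dorsal telencephalon. The 9 genes were chosen by symbol (Tbr1, Bcl11b, Fezf2, Tle4, Cux1, Cux2, Pou3f2, Pou3f3 and Mef2c) and make up 9 of the 32285 genes counted. All were present in both libraries, and their levels played no part in how cells were sorted into classes.

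The series was designed to compare Emx1-Cre Dot1l conditional knockout (cKO) embryos with controls. Both libraries used here carry the label WT and come from embryos at E16.5, and the cKO was not analysed here. The names WT replicate 1 and WT replicate 6 follow the sample labels, and the tissue is labelled brain hemispheres, with the dorsal telencephalon as the part that was dissected. The labels give neither strain nor sex and do not state how many embryos went into a library, so p-values measure only the spread between these libraries, which may be technical.

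Neurons of the neocortex are born from radial glial cells (RGCs) and from intermediate progenitors (IPCs) in an order in which deep layers form first and upper layers later. Fezf2 and Bcl11b act in the specification of layer 5 neurons that project below the cortex, Tbr1 and Tle4 mark layer 6 corticothalamic neurons, and Cux1, Cux2, Pou3f2 and Pou3f3 are upper layer factors. Several of these genes also work outside the cortical excitatory lineage. Bcl11b is needed by striatal projection neurons, Mef2c and Cux2 are expressed in interneurons from the medial ganglionic eminence (MGE), and Mef2c serves microglia and endothelium too.

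WT replicate 1 held 14136 barcodes with 74930397 unique molecular identifiers (UMIs, each standing for a captured mRNA molecule), and WT replicate 6 held 13046 barcodes with 68964234 UMIs. After filtering for 1500 to 60000 UMIs and under 10% mitochondrial UMIs, and after leaving out likely doublets, 7219 and 7352 cells were used, with medians of 6464 and 6265.5 UMIs. The passing cells of both libraries had 26 barcodes in common, 0.319% of the smaller set. Cells were gated on marker genes other than the 9 factors. This gave 2160 and 2384 excitatory-gated cells, 239 and 243 striatal-gated cells, 859 and 858 interneuron-gated cells, 321 and 307 RGC-gated cells and 77 and 95 IPC-gated cells. Excitatory-gated cells were split by layer markers into 1445 and 1632 upper-layer-gated cells (Unc5d, Lhx2 and others) and 251 and 231 deep-layer-gated cells (Sox5, Hs3st4, Rprm and others), while 464 and 521 cells, 21.5% and 21.9%, fell in neither. Interneurons were split into 469 and 480 MGE-gated and 227 and 230 CGE-gated cells (CGE, caudal ganglionic eminence).

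The gates held the markers of their names, with limits. In excitatory-gated cells Neurod2 was detected in 95.3% and 96.3% of cells, but the vesicular glutamate transporter Slc17a7 in only 11.6% and 11.7%. In striatal-gated cells Ebf1 was detected in 66.5% and 61.3% of cells and Isl1 in 64.0% and 58.4%, whereas the dopamine receptor gene Drd1 was near 0 (3.35% and 2.88%). In MGE-gated cells Maf was detected in 85.1% and 83.5%, but Sst in only 21.3% and 18.8% and Npas1 in 8.96% and 7.92%. CGE-gated cells held Adarb2 in 98.2% and 99.1% of cells, but Htr3a in only 17.6% and 16.5%. Median depth differed between the classes and was, for example, 8992 and 7995 UMIs in excitatory-gated cells, 5851 and 5337 in striatal-gated cells and 4182 and 3795 in interneuron-gated cells. Levels are therefore given as UMIs of a gene per 1000000 UMIs summed over the class (CPM), and shares of cells with a UMI are given after thinning each cell to 2000 UMIs. Because read counting may include introns, which would favour long genes, a level is compared only with other levels of the same gene.

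By the RefSeq annotation of GRCm38.p6, the build that the submitters call mm10, the deep layer genes were Tbr1 (ENSMUSG00000035033, chr2:61802863-61814114), Bcl11b (ENSMUSG00000048251, chr12:107910403-108004145), Fezf2 (ENSMUSG00000021743, chr14:12338992-12346803) and Tle4 (ENSMUSG00000024642, chr19:14448072-14598183). The upper layer genes were Cux1 (ENSMUSG00000029705, chr5:136248135-136567590), Cux2 (ENSMUSG00000042589, chr5:121857962-122050415), Pou3f2 (ENSMUSG00000095139, chr4:22482095-22488366) and Pou3f3 (ENSMUSG00000045515, chr1:42695768-42700210). Mef2c (ENSMUSG00000005583) lies at chr13:83504017-83667079. Their spans ran from 4.4 kb for Pou3f3 to 319.5 kb for Cux1.

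The 250 bases upstream of the 13 annotated start sites of the 9 genes were searched on both strands for sequences that factors of these families bind. The POU octamer ATGCAAAT was in 0 of the 13 and in 1.60% of 32851 mouse promoters of that length, the T-box sequence AGGTGTGA in 0 and in 1.12%, and the MEF2 motif in 0 and in 2.92%. The CUX core ATCGAT was in 1 of the 13 and in 0.728% of all promoters. The CCAAT box, taken as a common promoter element, was in 5 of the 13 and in 33.8%. A match describes only the letters of the window. Shown here from RefSeq are the upstream windows of Pou3f2 (chr4:22488367-22488616, minus strand) and Pou3f3 (chr1:42695518-42695767, plus strand), since these genes had the most similar pattern of any pair of the 9. They are followed by the window before the second annotated start of Cux2 (chr5:122047826-122047945, minus strand, within the gene), which holds the one CUX core. Capitals mark the matches, CCAAT in the first pair and ATCGAT in Cux2.
Pou3f2: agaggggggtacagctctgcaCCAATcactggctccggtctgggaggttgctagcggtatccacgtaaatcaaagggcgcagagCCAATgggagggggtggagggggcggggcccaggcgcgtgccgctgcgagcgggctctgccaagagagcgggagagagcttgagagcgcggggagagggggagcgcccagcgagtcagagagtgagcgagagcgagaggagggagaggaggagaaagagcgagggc
Pou3f3: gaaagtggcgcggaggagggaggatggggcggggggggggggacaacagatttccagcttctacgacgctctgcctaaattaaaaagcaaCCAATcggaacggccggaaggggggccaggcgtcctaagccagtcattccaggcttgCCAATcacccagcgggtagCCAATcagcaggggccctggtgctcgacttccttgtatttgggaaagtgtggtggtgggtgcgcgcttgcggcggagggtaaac
Cux2: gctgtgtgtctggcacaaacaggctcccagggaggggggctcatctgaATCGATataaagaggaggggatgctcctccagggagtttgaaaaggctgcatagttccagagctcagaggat
In Pou3f2 the CCAAT boxes began at -229 and -166 from the start, in Pou3f3 at -160, -103 and -84, and in Cux2 the CUX core spanned -72 to -67.

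**Figure D1:**
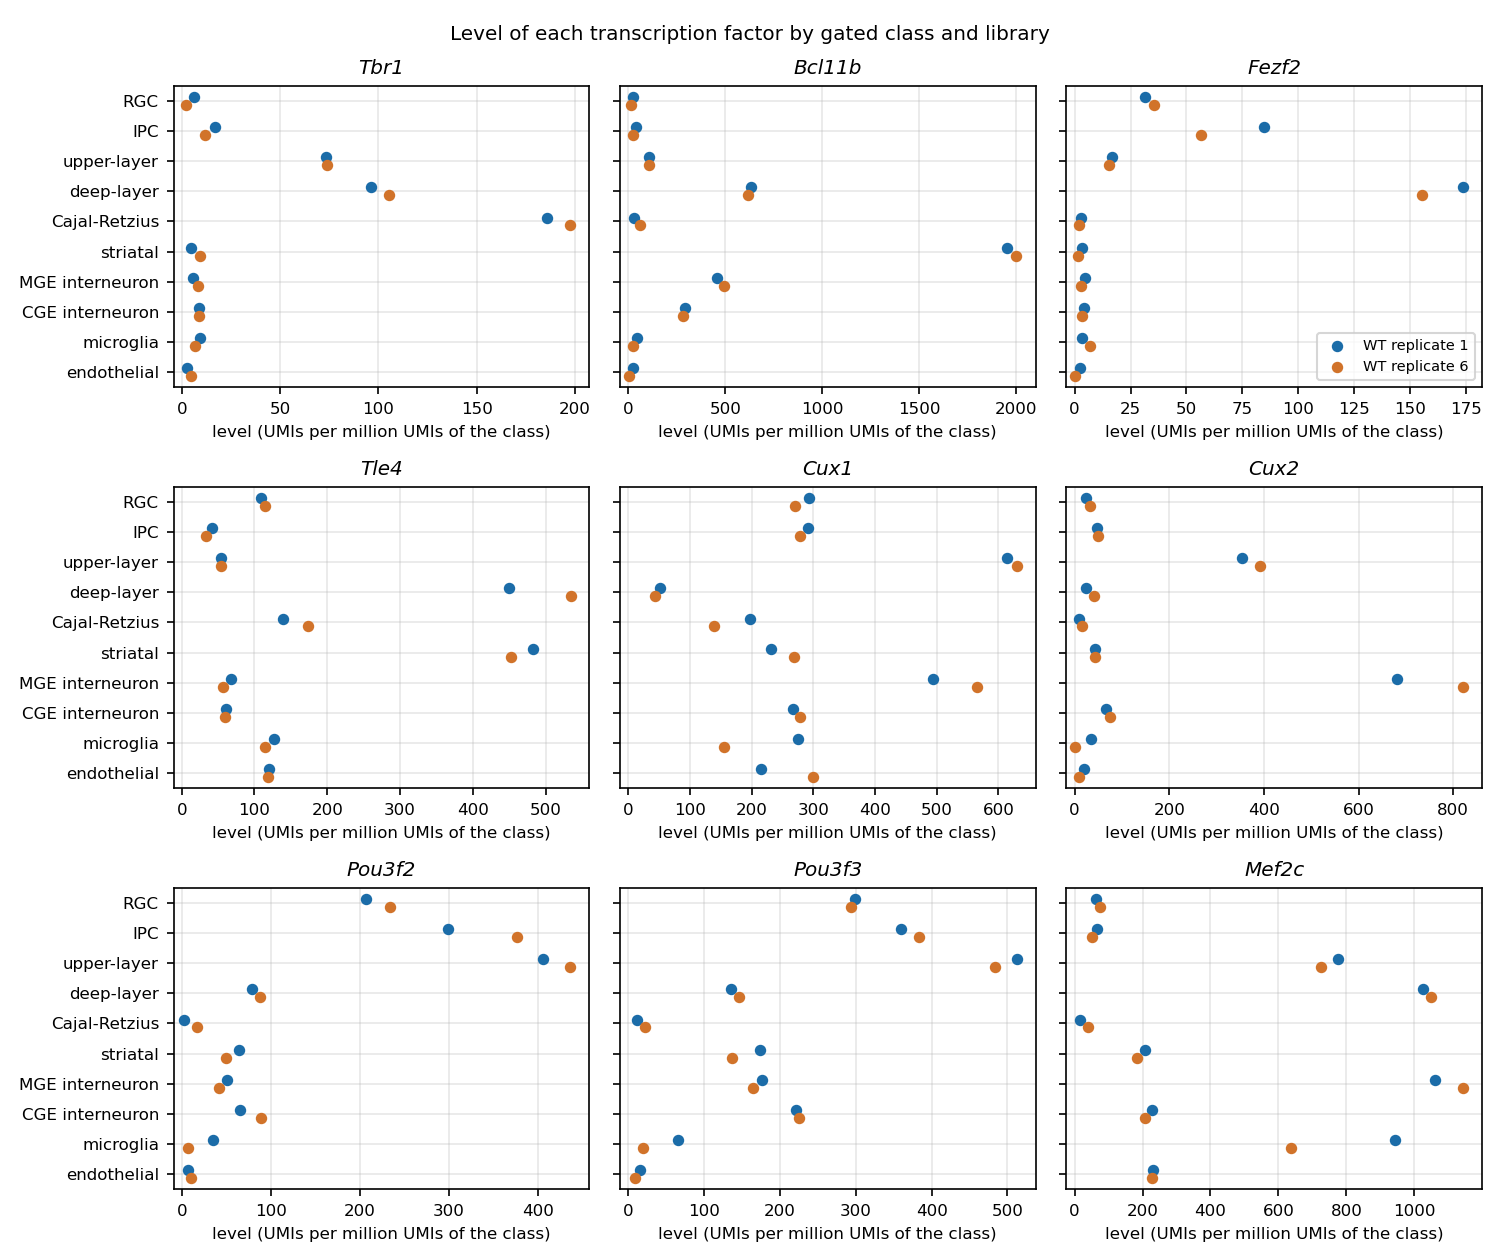
Level of each of the 9 genes (x axis, CPM of the class, linear from 0, own scale per panel) in 10 gated classes (y axis), with a point for each library. Bcl11b is highest in striatal-gated cells (1950 and 1999), Cux2 and Mef2c in MGE-gated interneurons, and Tbr1 in Cajal-Retzius-gated cells (186 and 197).

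The first comparison described how far the factors separated the layers when cells were gated on other genes. The 9 genes and the layer markers were chosen as layer genes, with earlier results of these data known. The counts passing, here and below, depend on that choice and are no independent evidence. Between deep-layer-gated and upper-layer-gated cells all 9 genes passed the test (edgeR's quasi-likelihood test, Benjamini-Hochberg adjusted over 13724 genes), against 24.8% of all genes tested. 5 were higher in deep-layer-gated cells, where 14.6% of all genes tested were, and 4 in upper-layer-gated cells, where 10.2% were. The median absolute log2 difference was 2.53 over the 9 genes and 0.29 over all genes tested.

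Fezf2, the zinc finger factor of subcerebral projection neurons, stood at 173 and 155 CPM in deep-layer-gated cells of WT replicates 1 and 6 and at 16.6 and 15.2 CPM in upper-layer-gated cells. It was higher in deep-layer-gated cells by 3.39 ± 0.10 on the log2 scale (SE, adjusted p = 1.63e-07). Bcl11b, also known as Ctip2 and acting downstream of Fezf2 in these neurons, was higher by 2.53 ± 0.09 (adjusted p = 2.40e-07), with 632 and 615 CPM against 110 and 108. The corepressor Tle4 was higher by 3.22 ± 0.11 (adjusted p = 1.87e-07), with 449 and 535 CPM against 53.6 and 53.3. For these genes the gap between the classes was many times the gap between libraries.

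Tbr1, a T-box factor that follows Eomes in the excitatory lineage, separated the layers far less. Its level was 96.2 and 106 CPM in deep-layer-gated cells and 73.3 and 73.7 CPM in upper-layer-gated cells, a log2 difference of 0.47 ± 0.08 (adjusted p = 0.00358). With a gate that asked for 3 markers and 90% of marker UMIs the difference was 0.17 and no longer passed. Mef2c, a MADS-box factor of neuronal maturation and the one gene of the 9 that is not bound to a layer, showed a difference of like size, at 1027 and 1048 CPM against 776 and 727 CPM (0.48 ± 0.08, adjusted p = 0.0028). Under the stricter gate its difference was 0.29, and it did not pass there either.

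The upper layer factors formed the other side. Cux1, a homeobox factor, was at 52.0 and 44.0 CPM in deep-layer-gated cells and at 614 and 631 CPM in upper-layer-gated cells, a difference of -3.67 ± 0.11 (adjusted p = 1.63e-07). Deep-layer-gated cells had the lowest level of Cux1 among all 10 classes, below endothelial-gated cells with 215 and 300 CPM. Its paralog Cux2 differed by -3.51 ± 0.17 (adjusted p = 1.19e-06), from 25.1 and 40.5 CPM to 353 and 391 CPM. Pou3f2 (Brn2) differed by -2.32 ± 0.09 and Pou3f3 (Brn1) by -1.80 ± 0.09, the smallest of the 4. Pou3f3 remained at 136 and 147 CPM in deep-layer-gated cells.

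Shares of cells gave the same order at a fixed depth of 2000 UMIs. Bcl11b was detected in 66.5% and 66.7% of deep-layer-gated cells and in 18.0% and 18.1% of upper-layer-gated cells. In endothelial-gated cells, a class not known to use it, it was found in 20.3% and 7.89% of cells before thinning (19 and 3 UMIs in all), against 90.8% and 91.3% of deep-layer-gated and 40.2% and 40.1% of upper-layer-gated cells. Fezf2 was detected in 23.9% and 22.1% against 3.57% and 2.65%, with 0.877% and 0.844% in striatal-gated cells, which are likewise not known to use it. For Cux1 the shares were 11.2% and 9.52% in deep-layer-gated cells and 62.7% and 63.5% in upper-layer-gated cells. Tbr1 was found in 19.5% and 15.6% of deep-layer-gated and in 12.1% and 13.1% of upper-layer-gated cells. Such shares depend on the depth chosen.

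**Figure D2:**
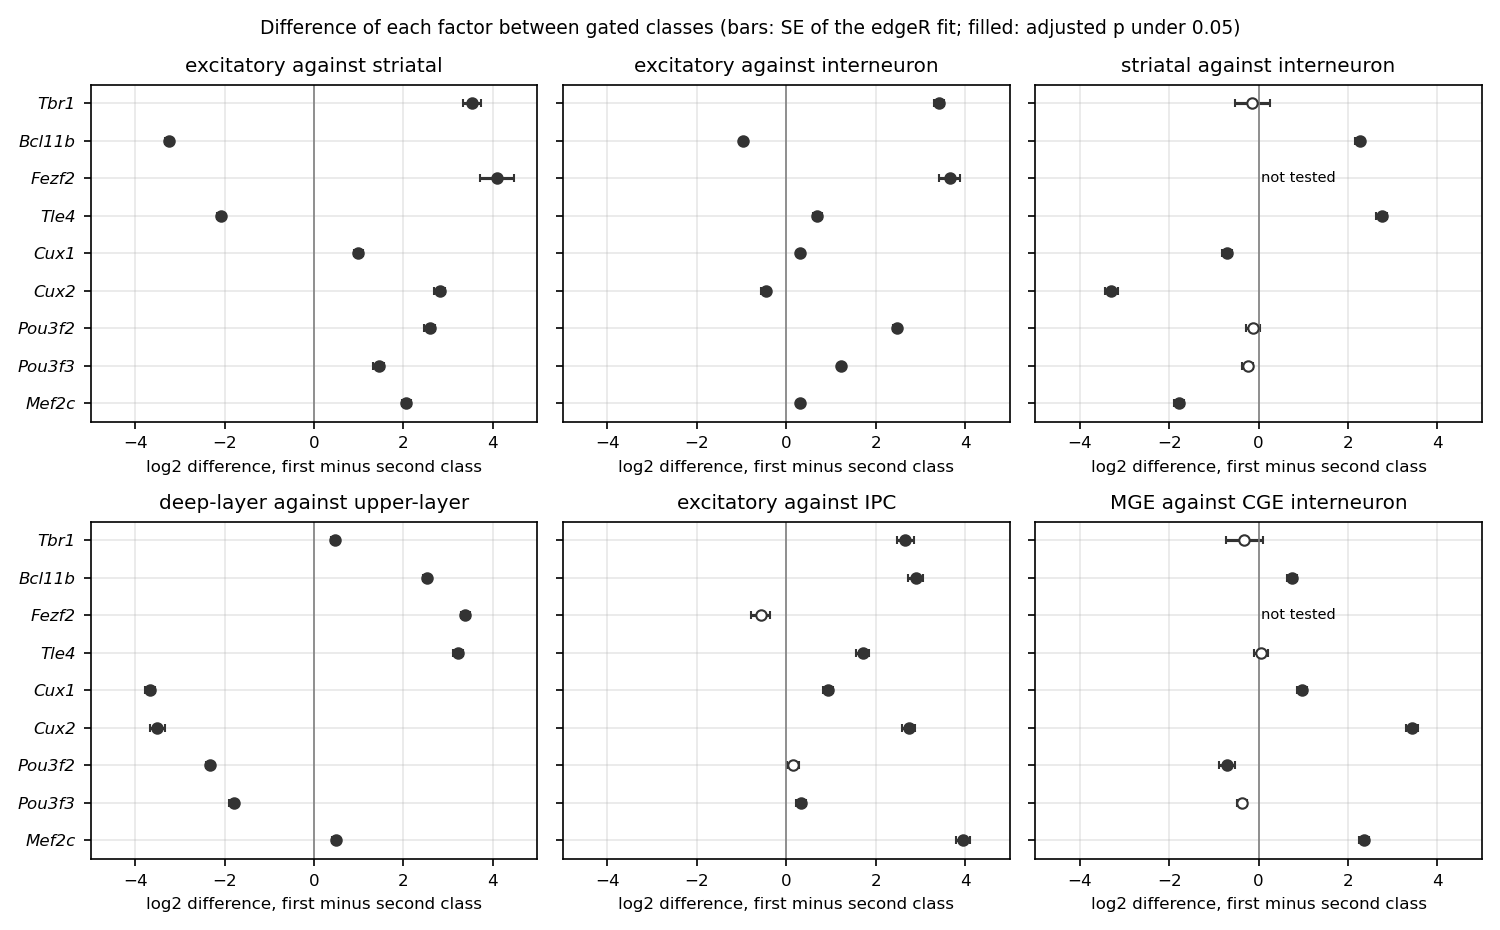
Log2 difference of each of the 9 genes (x axis, first class minus second class) in 6 comparisons of gated classes, with the SE derived from the edgeR test statistic as bars, filled points where the adjusted p was under 0.05 and open points where it was not. In deep-layer-gated against upper-layer-gated cells the genes spread from -3.67 for Cux1 to 3.39 for Fezf2.

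Of 27 other genes linked to layers, 22 were not part of the layer gates, and 9 of them were higher and 5 lower in deep-layer-gated cells. The zinc finger genes Tshz3 (3.53 ± 0.13) and Tshz2 (3.46 ± 0.23) and the ETS factor Etv1 (3.23 ± 0.21), a marker of layer 5, had the largest differences towards deep layers. Towards upper layers these were Tle1 (-1.62 ± 0.09) and Tle3 (-1.38 ± 0.14), corepressors of the family of Tle4, and the POU factor Pou3f1 (-1.25 ± 0.08). Tle4 and its relatives Tle1 and Tle3 thus differed in opposite directions.

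Whether these factors belong to cortical excitatory neurons was asked by comparison with striatal-gated cells. All 9 passed the test, against 25.4% of 14596 genes, and 7 were higher in excitatory-gated cells, where 12.1% of all genes were. Fezf2 (4.09 ± 0.38) and Tbr1 (3.54 ± 0.20) differed most, from 45.8 and 36.2 CPM of Fezf2 and 79.0 and 79.8 CPM of Tbr1 in excitatory-gated cells. In striatal-gated cells Fezf2 had 5 and 2 UMIs in all (3.51 and 1.46 CPM) and Tbr1 had 7 and 13 (4.91 and 9.47 CPM). Endothelial-gated cells held 2.43 and 0 CPM of Fezf2 and 2.43 and 4.63 CPM of Tbr1. Cux2 (2.81 ± 0.11), Pou3f2 (2.59 ± 0.13), Mef2c (2.06 ± 0.10), Pou3f3 (1.45 ± 0.12) and Cux1 (0.99 ± 0.09) followed.

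Bcl11b and Tle4 ran the other way. Bcl11b reached 1950 and 1999 CPM in striatal-gated cells and 208 and 191 CPM in excitatory-gated cells, a difference of -3.24 ± 0.09 (adjusted p = 2.92e-07). At 2000 UMIs it was detected in 93.0% and 89.9% of striatal-gated cells, and its level there was 3.17-fold that of deep-layer-gated cells, the next class. Tle4 was at 483 and 453 CPM in striatal-gated cells (-2.08 ± 0.09, adjusted p = 1.96e-06), and these values overlapped those of deep-layer-gated cells. Striatal-gated and deep-layer-gated cells thus shared the 2 highest levels of both genes, while Fezf2 and Tbr1 set them apart.

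Among the other layer genes, 16 of 27 were higher in excitatory-gated and 8 in striatal-gated cells, where 12.1% and 13.3% of all genes tested were. Those higher in excitatory-gated cells included Otx1 and Id2 (4.63 ± 0.11). Otx1 had no UMI in either striatal sum, and no fold is given because its level in excitatory-gated cells was only 4.77 ± 0.50 CPM (SD, n = 2). Foxp2 (-4.23 ± 0.11), Tshz2 (-3.01 ± 0.12) and Foxp1 (-2.64 ± 0.09), of which both Foxp genes are known striatal factors, were higher in striatal-gated cells.

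Against interneuron-gated cells all 9 genes again passed, where 46.7% of 15104 genes did. Fezf2 (3.66 ± 0.23), Tbr1 (3.42 ± 0.11), Pou3f2 (2.48 ± 0.08) and Pou3f3 (1.23 ± 0.07) were higher in excitatory-gated cells, and Tle4 by less (0.70 ± 0.11, adjusted p = 0.00108). Bcl11b was lower in excitatory-gated cells (-0.96 ± 0.08, adjusted p = 5.20e-05), with 208 and 191 CPM against 395 and 429. The excitatory sums mix the layers, and both directions turned in 1 layer class. Tle4 in upper-layer-gated cells (53.5 and 53.3 CPM) was below interneuron-gated cells (77.5 and 61.4 CPM). Bcl11b in deep-layer-gated cells (632 and 615 CPM) was above them. Cux1 (0.31 ± 0.08), Mef2c (0.31 ± 0.08) and Cux2 (-0.46 ± 0.11) passed with small differences. Each of these 3 lost its call under at least 2 other settings. Of the other layer genes 17 of 27 were higher in excitatory-gated cells, among them Lhx2 (4.31 ± 0.11) and Pou3f1 (3.49 ± 0.13), and 8 were lower, led by Etv1 (-4.06 ± 0.09), Foxp2 (-2.11 ± 0.12) and Satb1 (-1.27 ± 0.10). Of all genes tested, 23.3% were higher and 23.4% lower in excitatory-gated cells.

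Both GABAergic classes were then compared with each other. Of the 8 factors with enough counts, 5 passed, against 19.0% of 11944 genes, and Fezf2 was too low to be tested. Tle4 (2.75 ± 0.13) and Bcl11b (2.26 ± 0.10) were higher in striatal-gated cells, as were 9.31% of all genes tested. Cux2 (-3.29 ± 0.14), Mef2c (-1.77 ± 0.11) and Cux1 (-0.70 ± 0.11) were higher in interneuron-gated cells, as were 9.68%. Pou3f2 (-0.13 ± 0.15, adjusted p = 0.619), Pou3f3 (-0.24 ± 0.12, adjusted p = 0.215) and Tbr1 (-0.14 ± 0.39, adjusted p = 0.854) did not pass. Of 25 other layer genes tested, 7 were higher in striatal-gated cells, led by Pou3f1 (3.89 ± 0.15), Foxp1 (3.58 ± 0.12) and Lmo4 (2.16 ± 0.12). A further 11 were higher in interneuron-gated cells, led by Etv1 (-4.70 ± 0.18) and the SMAD-binding factor Zeb2 (-3.64 ± 0.12), while Tle2 was at 16.6 ± 2.25 CPM there and at 1.43 ± 0.04 CPM in striatal-gated cells (SD, n = 2).

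The interneuron class was not uniform for the layer factors. Between MGE-gated and CGE-gated cells 5 of the 8 factors tested passed, against 14.0% of 10670 genes, and Fezf2 was again too low. 4 were higher in MGE-gated cells, where 6.13% of all genes were, and 1 was lower, where 7.87% were. Cux2 was at 681 and 820 CPM in MGE-gated cells and at 65.5 and 75.6 CPM in CGE-gated cells (3.43 ± 0.14, adjusted p = 1.41e-07). The level in MGE-gated cells was 2.02-fold that of upper-layer-gated cells, the class for which Cux2 is best known, and the libraries of these classes did not overlap. Mef2c was at 1060 and 1143 CPM against 227 and 207 CPM (2.37 ± 0.11, adjusted p = 2.82e-07), Cux1 was higher in MGE-gated cells by 0.98 ± 0.12 and Bcl11b by 0.75 ± 0.11. Pou3f2 was lower in MGE-gated cells (-0.70 ± 0.18, adjusted p = 0.0259), but its difference was 0.052 with the stricter gate. Pou3f3 was at 177 and 165 CPM against 222 and 225 CPM and did not pass (-0.36 ± 0.11, adjusted p = 0.055), while it did with the library as a block (-0.36, adjusted p = 0.00542). Tle4 (0.06 ± 0.16, adjusted p = 0.889) and Tbr1 (-0.32 ± 0.42, adjusted p = 0.728) gave no call. MGE-gated cells were the shallower, with medians of 3746 and 3591.5 UMIs against 4659 and 4427.5.

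At 2000 UMIs Cux2 was detected in 64.1% and 67.8% of MGE-gated cells and in 11.2% and 13.6% of CGE-gated cells. Mef2c was found in 68.1% and 69.2% against 32.5% and 29.4%. The other layer genes higher in MGE-gated cells were 6 of 25 tested, led by Tshz3 (2.47 ± 0.16), the chromatin organiser Satb1 (1.36 ± 0.14) and Nfe2l3 (1.23 ± 0.26). Those lower were 7, led by Foxp2 (-3.89 ± 0.13) and the nuclear factor I genes Nfia (-2.24 ± 0.11) and Nfib (-1.93 ± 0.10).

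A further comparison set excitatory-gated cells against the IPCs that precede them. Here 7 of the 9 factors were higher in excitatory-gated cells, against 23.0% of 14519 genes higher there and 41.5% called in either direction. Mef2c rose most, from 66.3 and 50.4 CPM in IPC-gated cells to 813 and 756 CPM (3.95 ± 0.16, adjusted p = 3.64e-08). Bcl11b (2.90 ± 0.17), Cux2 (2.74 ± 0.14), Tbr1 (2.67 ± 0.19), Tle4 (1.71 ± 0.14) and Cux1 (0.93 ± 0.11) were higher as well. These sums mix the layers too. Cux1 in deep-layer-gated cells (52.0 and 44.1 CPM), for example, was below IPC-gated cells (292 and 279 CPM). The median of all genes was itself shifted by 0.11 with TMM scaling and by -0.08 without it, so the small difference of Pou3f3 (0.32 ± 0.11, adjusted p = 0.0398) was 0.13 without TMM and was then lost.

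Fezf2 and Pou3f2 were the exceptions, with no call in either direction. Fezf2 was at 84.7 and 56.4 CPM in IPC-gated cells, on 60 and 47 UMIs, and at 45.8 and 36.2 CPM in excitatory-gated cells. The difference of -0.57 ± 0.21 missed the threshold (adjusted p = 0.0527), but it passed with the library as a block (-0.58, adjusted p = 0.00323). RGC-gated cells held 31.5 and 35.4 CPM of Fezf2, more than upper-layer-gated cells with 16.6 and 15.2. Pou3f2 was at 299 and 377 CPM in IPC-gated cells and at 313 and 344 CPM in excitatory-gated cells (0.15 ± 0.13, adjusted p = 0.40). Both POU genes were also high in RGC-gated cells, at 207 and 234 CPM for Pou3f2 and 299 and 294 CPM for Pou3f3. Among the other layer genes 18 of 27 were higher in excitatory-gated cells, among them Tle2 (on 0.60 ± 0.85 CPM, SD, n = 2, in IPC-gated cells) and Tshz3 (2.86 ± 0.20). 4 (14.8%) were lower, a share below the 18.5% of all genes tested, led by Foxp2 (-2.39 ± 0.12), Otx1 (-2.36 ± 0.29) and Etv1 (-1.15 ± 0.36).

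Outside these comparisons the highest Tbr1 level was that of Cajal-Retzius-gated cells, early-born Reln-expressing neurons of the marginal zone, with 186 and 197 CPM in 37 and 38 cells. The same cells had only 1 UMI of Fezf2 per library and 2.90 and 17.4 CPM of Pou3f2. Mef2c was at 944 and 639 CPM in microglia-gated cells, a range that overlapped upper-layer-gated cells, and at 230 and 227 CPM in endothelial-gated cells. The microglial value rests on 36 and 32 cells, and those of WT replicate 6 had a median of only 2555.5 UMIs. Tle4 was at 119 CPM in endothelial-gated cells of either library, above the upper-layer-gated value.

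How the factors combined within single cells was examined next, at 2000 UMIs per cell. Co-detection was read as the ratio of cells with a UMI of both genes to the number given by the product of the single shares. In excitatory-gated cells 15 of the 36 pairs had a ratio above 1 in both libraries, some by little (Tbr1 with Pou3f3, 1.02 and 1.03). Pairs of other genes were not counted, so this number has no background and is not read as a result about the 9 genes. Cells of a library are not replicates, so these ratios carry no test. In 2125 and 2367 excitatory-gated cells the highest ratios joined the deep layer genes, namely Bcl11b with Fezf2 (1.79 and 1.50), Bcl11b with Tle4 (1.64 and 1.64) and Fezf2 with Tle4 (1.73 and 1.39). The upper layer genes were joined by lower ratios, from 1.17 for Cux1 with Pou3f3 to 1.35 for Cux1 with Cux2, both in WT replicate 1. A ratio is capped by the larger single share of its pair. Cux1 was detected in 49.6% and 51.2% of these cells and Bcl11b in 25.5% and 25.3%. The ratios of the deep and upper layer genes are therefore not on the same scale.

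The lowest ratios lay between the sets. Fezf2 and Cux2 were found together in 13 and 19 cells where 49.8 and 48.4 would follow from the single shares, ratios of 0.26 and 0.39. Fezf2 with Cux1 gave 0.39 and 0.44, and Bcl11b with Cux1 gave 0.64 and 0.72. The ratios of Tbr1 were between 1.02 and 1.14 with the 4 upper layer genes, 1.15 and 1.28 with Bcl11b and 1.15 and 1.11 with Tle4. With Fezf2 they were 0.79 and 0.61, on 14 and 10 cells. The pattern of Tbr1 depended on the setting. In cells of 3000 to 30000 UMIs and under 5% mitochondrial UMIs, Tbr1 with Tle4 was at 1.39 and 1.26. With the 4 upper layer genes it was between 0.95 and 1.15 there.

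**Figure D3:**
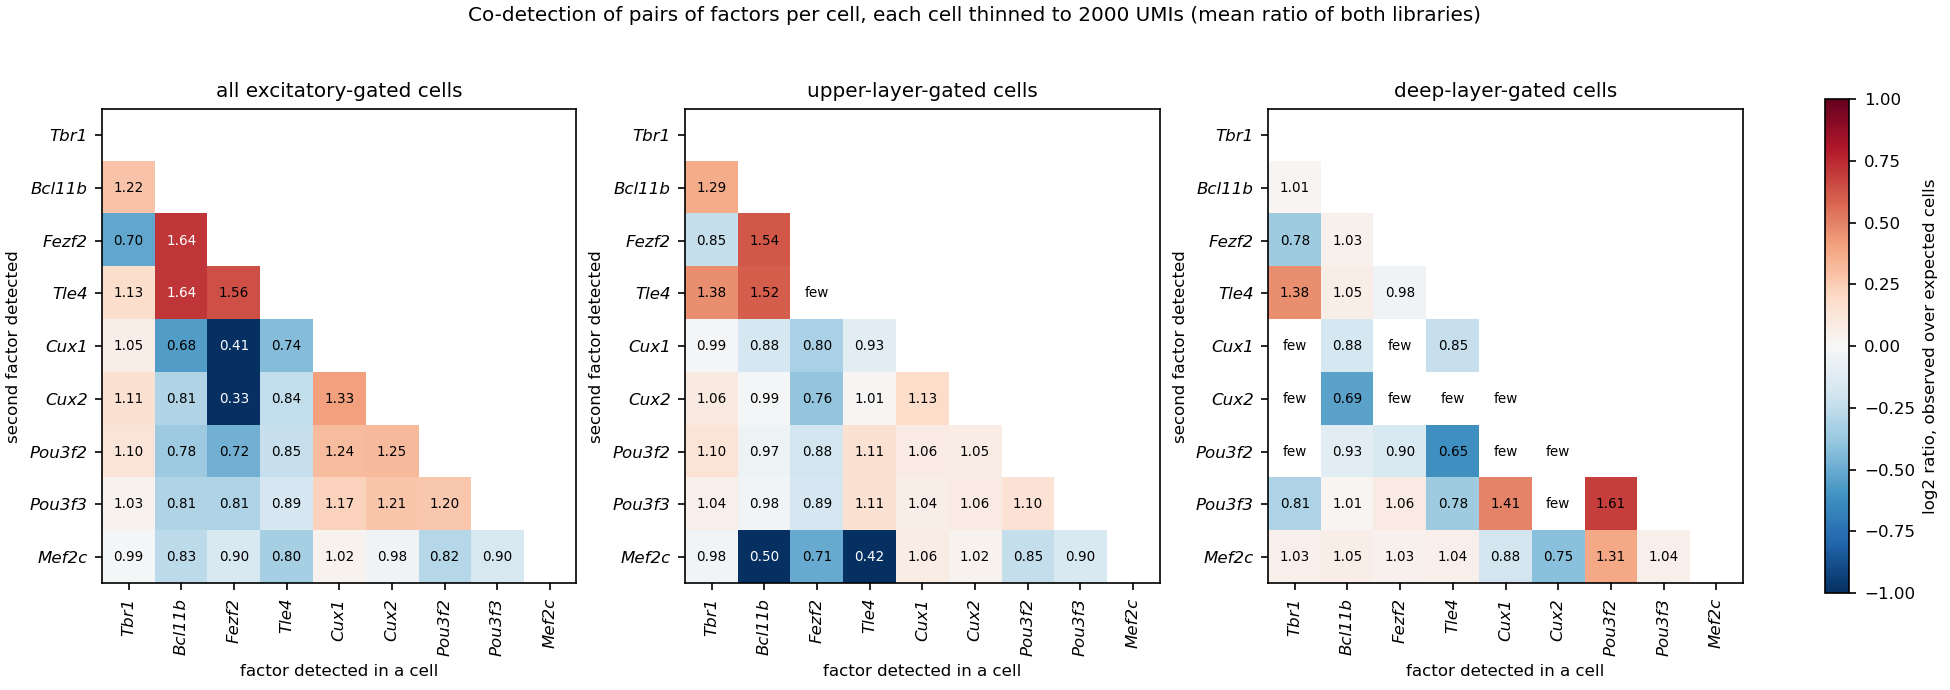
Ratio of observed to expected cells for each pair of the 9 genes (mean of both libraries, printed in the squares and coloured on a log2 scale) in all excitatory-gated cells and within upper-layer-gated and deep-layer-gated cells, each cell thinned to 2000 UMIs. Squares marked few had under 5 expected cells in a library, and the dark blue squares of the upper-layer panel are Bcl11b and Tle4 with Mef2c.

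The same ratios were taken inside the layer classes. Within upper-layer-gated cells Bcl11b with Fezf2 had ratios of 1.53 and 1.55, on 14 and 12 cells, and Bcl11b with Tle4 had 1.77 and 1.27. Within deep-layer-gated cells they were 0.98 and 1.09 and 1.03 and 1.06, where Bcl11b was detected in most cells, which caps how high the ratio can go. Tbr1 with Tle4, both layer 6 genes, stayed above 1 there (1.20 and 1.56, in 24 and 25 cells) and in upper-layer-gated cells (1.44 and 1.32, in 23 and 27 cells). Within upper-layer-gated cells Bcl11b with Cux2 was at 0.998 and 0.981, and Cux1 with Cux2 at 1.15 and 1.11.

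A different split appeared within upper-layer-gated cells, around Mef2c. Of the cells with a Mef2c UMI 10.2% and 7.67% also held Bcl11b, against 18.0% and 18.1% of all upper-layer-gated cells, which gave ratios of 0.57 and 0.42 (67 and 53 cells where 118 and 125 were expected). Tle4 with Mef2c gave 0.36 and 0.48 (22 and 32 cells), a mean of 0.42 that was lower than under any other setting tried and rose to 0.68 with cells of 3000 to 30000 UMIs and under 5% mitochondrial UMIs. Ratios with Mef2c were also below 1, though by less, for Pou3f2 (0.82 and 0.88) and Pou3f3 (0.92 and 0.88). The same held for Fezf2 (0.81 and 0.60, on 19 and 11 cells). Cux1 (1.08 and 1.03) and Cux2 (1.04 and 1.01) were above 1 with Mef2c, and Tbr1 was on either side (0.92 and 1.04). The low ratios were thus not limited to deep layer genes. In deep-layer-gated cells Bcl11b with Mef2c was at 1.03 and 1.06, so the low ratio of this pair was not seen there.

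Other properties moved with that split. Before thinning, upper-layer-gated cells with Mef2c were deeper (medians of 9751 and 8709 UMIs) than all upper-layer-gated cells (8837 and 8012), and those with Bcl11b (8457 and 7600) or Tle4 (7903 and 7586) were shallower. IPC markers summed to 39.9 and 41.1 CPM in all upper-layer-gated cells, to 27.8 and 25.5 CPM in cells with Mef2c, to 41.5 and 45.5 CPM in cells with Bcl11b and to 59.0 and 56.3 CPM in cells with Tle4. Striatal markers summed to 8.96 and 9.49 CPM, 6.95 and 6.84 CPM, 17.5 and 16.5 CPM, and 13.8 and 8.84 CPM in the same order. In upper-layer-gated cells without any UMI of a striatal marker or pan-GABAergic gene, a selection made after seeing the data, the mean ratio was 0.52 for Bcl11b with Mef2c and 0.59 for Tle4 with Mef2c, compared with 0.50 and 0.42 in all upper-layer-gated cells. The part of depth, of IPC markers and of striatal markers in the ratio was not tested.

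Cells were last grouped by whether they held a UMI of any deep layer gene (Tbr1, Bcl11b, Fezf2, Tle4) or any upper layer gene (Cux1, Cux2, Pou3f2, Pou3f3). Deep layer genes alone were found in 54.6% and 51.5% of deep-layer-gated cells and in 3.43% and 2.77% of upper-layer-gated cells. Upper layer genes alone were found in 60.7% and 60.0% of upper-layer-gated cells and in 6.77% and 8.23% of deep-layer-gated cells. Both sets occurred together in 31.4% and 33.0% of upper-layer-gated and in 32.7% and 34.2% of deep-layer-gated cells. Cells with both sets were the largest group in striatal-gated cells, at 62.3% and 54.9%, and in MGE-gated interneurons, at 56.9% and 58.3%. These shares were not set against the product of the single shares. They therefore do not show that the sets occurred together more often than separate detection would give. In MGE-gated interneurons 155 and 180 of 404 and 422 cells held Bcl11b with Cux2, ratios of 1.03 and 1.05.

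**Figure D4:**
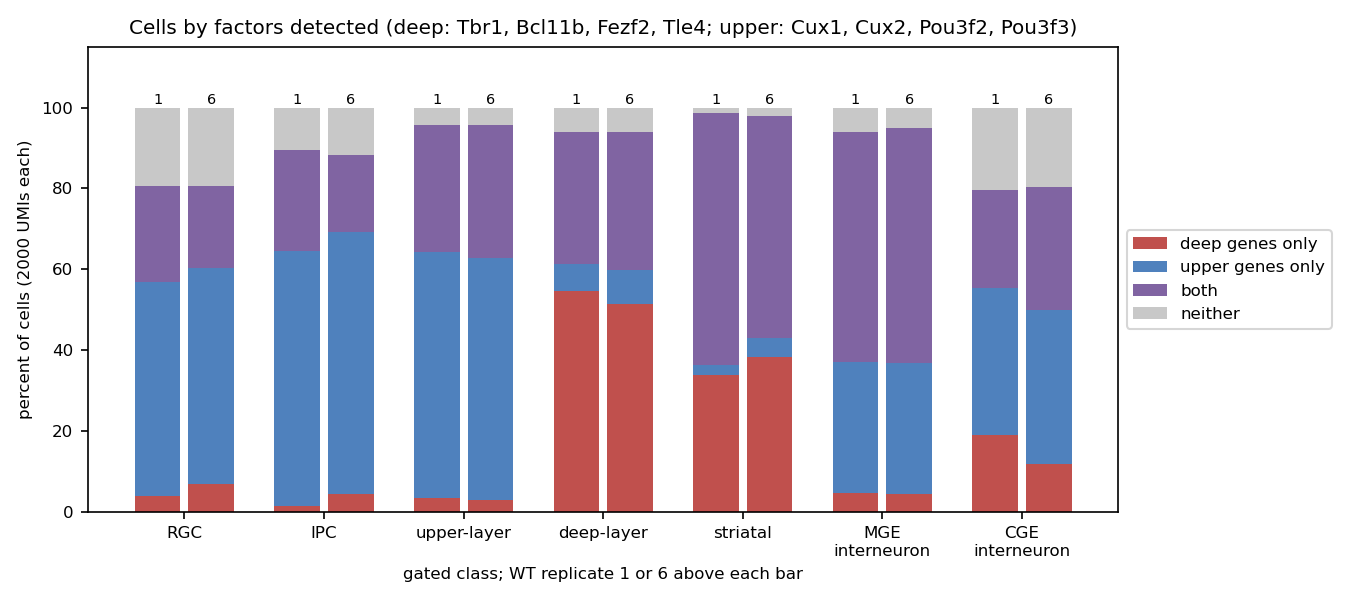
Percent of cells (y axis, each thinned to 2000 UMIs) with a UMI of deep layer genes only, upper layer genes only, both or neither, in 7 gated classes (x axis, a bar for each library). Deep-layer-gated cells are mostly of the deep genes only group (54.6% and 51.5%), upper-layer-gated cells of the upper genes only group (60.7% and 60.0%).

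Finally, the genes whose levels followed each factor were sought over 20 sums (10 classes in both libraries) among 11784 genes. The sums share libraries and differ in depth, so Pearson's r of log2(CPM + 10) is a description. Among the 9 genes themselves Pou3f2 and Pou3f3 were most alike (0.94), followed by Cux1 and Cux2 (0.64), and Tle4 and Cux1 were most opposed (-0.71). Pou3f3 was closest to Pantr1 (0.96), a long noncoding RNA gene that lies 943 bases from Pou3f3 in the annotation. Cux1 was closest to Gm16599 (0.79), a noncoding gene that overlaps it, so that reads of the pair may not be told apart. Tbr1 was closest to Ccbe1 (0.98), Efna3 (0.96) and Gm48091 (0.96), Bcl11b to Gm20754 (0.96), Gm15810 (0.95) and Lemd1 (0.93), and Fezf2 to Shisa9 (0.93), Syt9 (0.91) and Adamts18 (0.87). Cux2 was closest to Ankrd50 (0.89), Mef2c to Nfil3 (0.84) and Tle4 to Rasgrf1 (0.82).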

How the data were processed

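Droplet-based 3' single-cell libraries (10x Genomics) of 2 WT dorsal telencephalon samples were analysed. The deposited matrices hold raw, unnormalized UMI counts by gene and barcode, which the authors made with Cell Ranger 7.0.0 on mm10 per the submitters' processing notes. The gene annotation and the treatment of intronic reads are not given in the sources used here. The members and the marker and gene lists were chosen with earlier results of these data known.

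Barcodes were retained at 1500 to 60000 UMIs with under 10% mitochondrial UMIs. Doublets were then scored against 2 simulated doublets per cell in 30 principal components, and the highest-scoring cells were left out at a rate of 0.8% per 1000 cells (920 and 857 cells). A gate required 2 markers of a class, 3 UMIs of them and 75% of all class marker UMIs. Excitatory, IPC and RGC gates allowed at most 10% pan-GABAergic UMIs, and the striatal and interneuron gates required at least 1. Layer gates required 3 UMIs of layer markers.

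For each library, UMI counts of a class were added up, and the sums were compared by edgeR 4.0.16 in R 4.3.3 (glmQLFit and glmQLFTest, two-sided, filterByExpr, TMM), one pair of classes per fit, with p-values adjusted by Benjamini-Hochberg across every gene tested and a threshold of 0.05. The SE of a log2 difference was derived as its absolute size divided by the square root of the F statistic of the test. Each library contributes a sum to either class, so the replicate numbers pair the sums, whose deviations from their class means correlated within a library with r from 0.17 to 0.36. A fit with the library as a block was an alternative. Others were DESeq2 1.42.0, no filter, no TMM, doublets kept, stricter cells or gates, a single fit of all classes, and other thinning depths. The test was run on simulated counts drawn independently for each sum, so that check does not cover the correlation within a library. Named genes were all 9 members, the 3 other layer genes with the largest called difference per direction, and the 3 genes most like each member (for Cux1, Cux2, Tle4, Mef2c and the POU genes not all are printed). Some items that this rule names are not reported here. The chi-square statistic between the libraries was 26.9 per degree of freedom. It was taken on UMIs pooled over cells, which are not independent, so it cannot show whether the libraries are separate biological samples. They were counted as separate samples, as labelled.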

Additional observations from a re-analysis of the deposited data

How the results depend on the processing

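The count of factors called stayed within 1.5 times its main value in all 6 comparisons under every alternative run, and co-detection above 1 in both libraries was found for 13 to 17 of the 36 pairs (15 without replicate 1, 17 without replicate 6). Leaving out a library left 1 sum per class and so gave values with no test. Directions of uncalled or weak differences turned in 5 cases. Tbr1 in striatal-gated against interneuron-gated cells was 1.01 with the stricter gate, Pou3f2 in excitatory-gated against IPC-gated cells was -0.045 without TMM, Tle4 in MGE-gated against CGE-gated cells was -0.087 with doublets kept and -0.138 with stricter cells, and Pou3f2 there was 0.052 with the stricter gate. The cause was not tested. Besides Pou3f2 with the stricter gate, calls were lost in 14 cases, all of differences of Cux1, Cux2, Mef2c, Tbr1, Pou3f2 or Pou3f3, among them Cux2 in excitatory-gated against interneuron-gated cells with stricter cells (-0.22, adjusted p = 0.142) and Pou3f2 in MGE-gated against CGE-gated cells by DESeq2 (-0.72, adjusted p = 0.195). Calls were gained in 8 cases, by Fezf2 against IPC-gated cells and Pou3f3 between MGE-gated and CGE-gated cells. With the replicate block these were the differences -0.58 and -0.36, and the block changed no other call. In upper-layer-gated cells the co-detection ratio of Bcl11b with Mef2c ranged from 0.47 to 0.66 and that of Tle4 with Mef2c from 0.47 to 0.68 over alternatives added after seeing the data, the highest being those with cells thinned to 4000 UMIs and with stricter cells. Classes of few cells (IPC, Cajal-Retzius, microglia, endothelial) limit the depth behind low levels.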
